A study of Homo sapiens with 22 samples.

Results

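NB4 cells treated with the FTO degrader FP54 were compared with NB4 cells given DMSO by mRNA sequencing. The genes described are the 9853 of the 20411 in the NB4 table whose mean RPKM over the 6 libraries was at least 1. This mean covers both treatments, so a gene low with DMSO could enter through its FP54 values. NB4 is a human acute promyelocytic leukemia line, which carries the PML-RARA fusion and is arrested at the promyelocyte stage. FP54 is a proteolysis-targeting chimera (PROTAC), a molecule in which an FTO ligand is joined to a ligand of the VHL ubiquitin ligase, so that FTO protein is marked for the proteasome. FTO removes the m6A mark from mRNA. Cells received 2 μM FP54 or DMSO, the solvent, for 48 hours, with 3 libraries for each treatment. All cells were of 1 line, and the labels do not say whether the libraries came from separate cultures, so the p-values measure only the spread between these libraries. The comparison also has no treatment with an inactive degrader in these RNA-seq libraries, so that loss of FTO and other actions of the compound cannot be told apart.

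RPKM values, reads scaled to gene length and to the reads of the library, were computed by the authors. Reads on genes, recovered from the values and the gene lengths, came to 20662845 to 22349884 in the DMSO libraries and 10602361 to 13079369 in the FP54 libraries, so every FP54 library was the shallower. The lowest gene inside the limit was NDUFA11 at a mean of 1.00 RPKM and the highest outside it was ALG11 at 0.999 RPKM. The myeloperoxidase gene MPO, RNASE2, CTSG and PRTN3 were abundant in the DMSO libraries and HOXA9 and MEIS1, high in MOLM-13, were at 0.234 and 0.157 RPKM. RNASE2, CTSG and PRTN3 do not mark NB4 against MOLM-13, since MOLM-13 cells with DMSO held them at means of 279, 116 and 413 RPKM. MPO was at a mean of 16.1 RPKM there. A defining promyelocyte gene was nearly absent from these cells: ELANE, neutrophil elastase, stood at 0.150 ± 0.0627 RPKM with DMSO (SD, n = 3). Markers of other blood cells were measured too. The summed RPKM of 10 T and NK cell markers ran from 52.1 to 85.3 with DMSO and from 110.6 to 122 with FP54, most of it from NKG7 and TRAC, while the defining T cell genes CD3E and CD2 stayed at or below 0.201 RPKM in every library. Of 7 megakaryocyte markers, PF4, PPBP and GP9 had 0 reads throughout and ITGA2B accounted for the summed rise from 1.64 to 2.51 RPKM with DMSO to 14.1 to 15.4 RPKM with FP54. The 10 erythroid markers summed to no more than 1.15 RPKM and the 7 B cell markers to no more than 7.83 RPKM.

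The functions considered here are the responses by which a cell meets stress, the genes of myeloid differentiation, and the cell cycle. When amino acids run short, or heme or the endoplasmic reticulum is disturbed, kinases phosphorylate the translation factor eIF2, and the mRNA of ATF4 is then translated more. ATF4 switches on genes that make, import and charge amino acids. NRF2 answers oxidants, HIF answers low oxygen and is itself a substrate of VHL, HSF1 drives the heat shock chaperones, and SREBP2 drives sterol synthesis. A promyelocyte fills its primary, azurophil granules with proteins such as MPO and serine proteases, and on maturing it shuts those genes and raises adhesion and phagocytic receptors. Of 987 genes placed in 43 functional lists, 757 were tested. Differences were fitted by limma on log2(RPKM + 0.1), and calls needed p below 0.01 and an absolute log2 change no smaller than 0.5. By this rule 10.7% of all tested genes were called lower with FP54 (1050 genes) and 18.6% were called higher (1834 genes), and a list is read against these shares. The libraries of the treatments did not overlap in 60.5% of all tested genes (5962). Separation of the libraries was therefore common and does not by itself set a gene apart.

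The share of genes called higher depended on the level of expression. Among the 1135 genes with a mean of 1 to 2 RPKM the median log2 fold change was 0.38 and 39.0% were called higher, while among the 329 genes at 100 RPKM or more the median was −0.22, 5.47% were called higher and 26.7% were called lower. The median of all tested genes was 0.07 as deposited and −0.03 after quantile normalization, a shift of about 0.1, and the calls then became 1363 lower and 1280 higher. Over the 413 olfactory receptor genes, the receptors of the sense of smell, the mean was 0.00287 ± 0.00106 RPKM with DMSO and 0.0529 ± 0.00263 RPKM with FP54 (SD, n = 3 libraries). Their level is far below 1 RPKM, and the calls numbered 1093 lower and 1753 higher after it had been subtracted. Mitochondrially encoded genes held 12.02% to 13.05% of the summed RPKM with DMSO and 8.76% to 9.77% with FP54. The part of depth, of the mitochondrial share and of this dependence on level in any single result was not tested. Of all tested genes 376 had a mean below 1 RPKM with DMSO and passed the limit through the FP54 libraries, and 312 of these were called higher, while 53 were below 1 RPKM with FP54, of which 36 were called lower. Such calls are bound up with the limit and are given as values, not as support for a list. Genes below 1 RPKM with DMSO and called higher numbered 5 among the ATF4 factors, 3 among the interferon-stimulated genes, 3 among the coagulation and secreted factors, 2 each among the NRF2 targets, the AP-1 genes and the myeloid transcription factors, and at most 1 in any other list. Genes below 1 RPKM with FP54 and called lower numbered 2 among the azurophil granule genes, 2 among the histones and at most 1 in any other list.

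**Figure D1:**
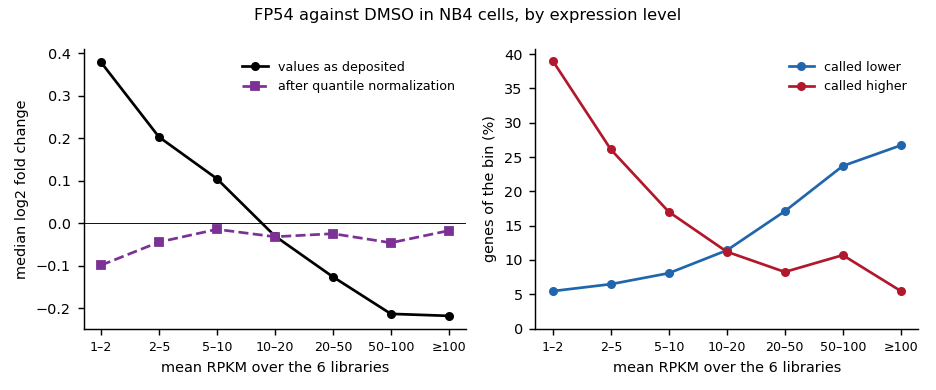
Left, the median log2 fold change (FP54 against DMSO) of genes grouped by mean RPKM over the 6 NB4 libraries, as deposited (circles) and after quantile normalization (squares). Right, the percentage of each group called lower or higher. The deposited medians run from 0.38 at 1 to 2 RPKM to −0.22 at 100 RPKM or more, and the quantile-normalized medians lie between −0.10 and −0.01.

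Genes of the ATF4 response were higher with FP54. Of the 18 tested genes for ATF4-induced factors and feedback proteins, 16 were called higher and 2 were not called, with a median log2 fold change of 2.23 (2.11 after quantile normalization, and 2.23 with GDF15 at the bound given next). Of the 16, GDF15, INHBE, ADM2, CHAC1 and STC2 had DMSO means below 1 RPKM and were tested because of their FP54 values, so this count and median are a description, and with a limit of 5 RPKM 10 were called higher. GDF15, a secreted stress cytokine, had 0 reads in each DMSO library and 60 to 71 reads, or 2.71, 2.64 and 2.60 RPKM, with FP54, at least 39.5-fold higher when set against 3 reads per DMSO library. DDIT3 (CHOP), a transcription factor of the late stress response on chr12:57516588-57521737, was at 18.1, 30.5 and 14.7 RPKM with DMSO and at 69.8, 84.9 and 71.8 RPKM with FP54 (log2 fold change 1.90, standard error 0.21, adjusted p = 4.82e-05). Its lowest FP54 library was above its highest DMSO library. The annotated span of DDIT3 overlaps MARS1 on the other strand, and MARS1 itself rose from 34.02 to 48.6 RPKM. TRIB3, a pseudokinase that feeds back on ATF4 signaling, was at 17.3, 17.9 and 14.1 RPKM with DMSO and at 76.6, 87.1 and 75.1 RPKM with FP54 (log2 fold change 2.27, standard error 0.11, adjusted p = 1.73e-07). CHAC1, which breaks down glutathione, rose from 0.298 ± 0.0708 RPKM with DMSO to 2.16 ± 0.0574 RPKM with FP54 (SD, n = 3). Secreted factors rose from low levels, STC2 by 4.09 and ADM2 by 3.87 on the log2 scale, and INHBE from 1 to 6 reads per library with DMSO to 120 to 164 with FP54. CEBPB rose by 1.502 and VEGFA by 2.19 on the log2 scale.

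ATF4 itself was the contrary case in its list. Its mRNA was at 198, 286 and 203 RPKM with DMSO and at 294, 290.4 and 279 RPKM with FP54 (log2 fold change 0.35, standard error 0.13, adjusted p = 0.0421), so the treatments overlapped and the change was below the cutoff. JDP2, the other uncalled member, had a log2 fold change of 0.33. Of the 9 tested genes for eIF2, its kinases and its phosphatase cofactors, EIF2AK3 (PERK) and PPP1R15B rose and EIF2S1, the alpha subunit of eIF2, fell from 31.2 ± 1.70 RPKM with DMSO to 19.6 ± 0.818 RPKM with FP54 (SD, n = 3). The rises of EIF2AK3 and PPP1R15B, 0.62 and 0.57, were not called after quantile normalization.

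Enzymes of amino acid synthesis and transporters of amino acids were higher with FP54. Of 15 tested genes for serine, glycine, proline and asparagine synthesis, 9 rose and 1 fell, with a median log2 fold change of 0.68. ASNS, asparagine synthetase, on chr7:97851677-97872542, was at 9.29, 8.96 and 8.11 RPKM with DMSO and at 48.4, 51.02 and 47.2 RPKM with FP54 (log2 fold change 2.46, standard error 0.09, adjusted p = 3.73e-08). ASNS was thus higher in each FP54 library than in any DMSO library. PSAT1, of the serine pathway, rose from 28.1 ± 3.90 RPKM with DMSO to 89.9 ± 2.75 RPKM with FP54 (SD, n = 3). ALDH1L2, SHMT2 and PHGDH, of mitochondrial folate metabolism and serine synthesis, had log2 fold changes of 2.90, 0.96 and 0.79. ALDH18A1, the first enzyme of proline synthesis, fell by 0.55 on the log2 scale, a call lost after quantile normalization. Of 13 tested amino acid transporters, 8 rose and 1 fell. SLC7A11, the cystine importer, was at 1.76, 1.11 and 1.26 RPKM with DMSO and at 10.5, 11.8 and 12.8 RPKM with FP54 (log2 fold change 3.02, standard error 0.16, adjusted p = 3.17e-07). SLC38A1, SLC3A2 and SLC7A5 had log2 fold changes of 0.93, 0.88 and 0.85, and SLC36A4 fell from 6.32 ± 1.05 RPKM with DMSO to 4.25 ± 0.405 RPKM with FP54 (SD, n = 3). Of 20 cytosolic aminoacyl-tRNA synthetases, which charge tRNA with amino acids, 5 rose and 2 fell, and the median was 0.15. WARS1 and AARS1 rose most, by 1.31 and 1.26, followed by CARS1 (0.67) and SARS1 (0.65), while FARSA and HARS1 had log2 fold changes of −0.56 and −0.54.

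Promoters of these genes were searched for the C/EBP-ATF response element CARE, which ATF4 binds with a C/EBP partner, as TGATGNAA on either strand. The window was 250 bases before to 50 bases after each RefSeq gene start on GRCh38.p14, and a promoter was found for 594 of the 757 listed genes and for 8085 of the 9853 tested. The motif was present in 3.67% of all 27305 promoters and 1.58% of those of tested genes. It was found in 2 of 16 promoters of the ATF4 factor list, 3 of 9 of the amino acid synthesis list, 3 of 12 transporters and 6 of 16 tRNA synthetases. The windows below are from genes that rose with FP54 and are shown to let the matches be compared. They read 5′ to 3′ on the gene's strand with the match in capitals, which in CHAC1 and AARS1 is the motif's reverse complement. Where a promoter holds several matches, 1 is capitalised, here and in the windows printed later.
ASNS: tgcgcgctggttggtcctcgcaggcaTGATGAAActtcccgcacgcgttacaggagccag
CHAC1: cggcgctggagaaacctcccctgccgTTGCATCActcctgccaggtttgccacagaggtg
ATF3: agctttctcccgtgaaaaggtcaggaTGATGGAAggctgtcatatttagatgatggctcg
AARS1: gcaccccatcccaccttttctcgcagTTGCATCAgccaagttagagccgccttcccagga
SLC38A1: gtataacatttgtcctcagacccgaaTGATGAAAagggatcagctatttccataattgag
SLC7A1: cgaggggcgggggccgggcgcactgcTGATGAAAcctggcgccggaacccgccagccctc
They lie at chr7:97872443-97872502 (- strand), chr15:40953236-40953295 (+ strand), chr1:212565190-212565249 (+ strand), chr16:70289660-70289719 (- strand), chr12:46266487-46266546 (- strand) and chr13:29595648-29595707 (- strand), in the order printed. The log2 fold changes of these genes ran from 0.76 for SLC7A1 to 2.52 for CHAC1. A match is a string of letters and was not tested for binding here.

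**Figure D2:**
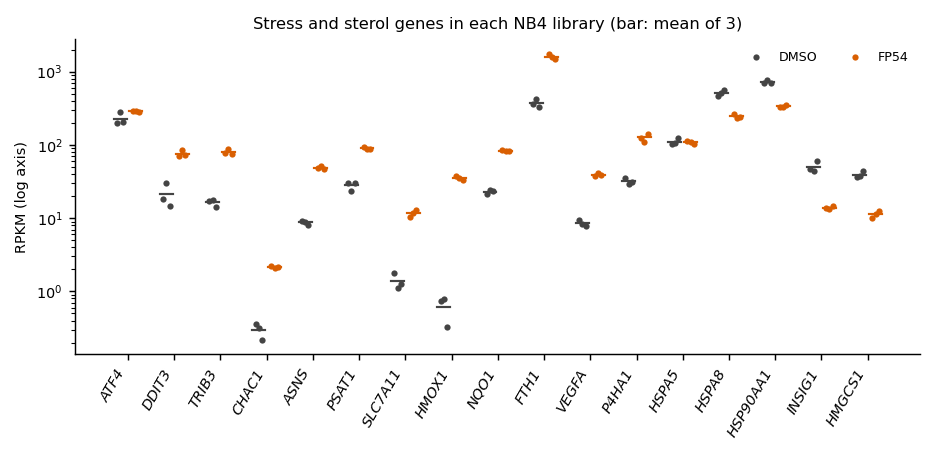
RPKM (log axis) of stress and sterol genes in each of the 3 DMSO and 3 FP54 libraries of NB4 cells, with bars at the mean. The treatments overlap for ATF4 and HSPA5, while DDIT3, TRIB3, CHAC1, ASNS, PSAT1, SLC7A11, HMOX1, NQO1, FTH1, VEGFA and P4HA1 are higher and HSPA8, HSP90AA1, INSIG1 and HMGCS1 lower in all FP54 libraries than in any DMSO library.

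Antioxidant genes that NRF2 controls also rose. Of 24 tested targets, 15 were called higher and 1 lower, with a median log2 fold change of 0.67 (0.77 after quantile normalization). HMOX1, heme oxygenase, on chr22:35380361-35394214, was at 0.735, 0.794 and 0.330 RPKM with DMSO and at 37.9, 35.8 and 33.6 RPKM with FP54. This was 57.7-fold by the means, with 17 to 39 reads behind the DMSO values and 925 to 1014 behind the FP54 values. NQO1, a quinone reductase, was at 21.1, 24.3 and 23.7 RPKM with DMSO and at 84.3, 81.5 and 81.4 RPKM with FP54 (log2 fold change 1.84, standard error 0.08, adjusted p = 1.27e-07). No FP54 library overlapped a DMSO library for either gene. HMOX1 was below 1 RPKM with DMSO and passed the limit through its FP54 values. Its change is therefore a description and not support for the list. PIR rose from 1.36 ± 0.243 RPKM with DMSO to 7.49 ± 0.1002 RPKM with FP54 (SD, n = 3), and GCLM, the regulatory subunit of glutamate-cysteine ligase, rose from 3.48 ± 0.639 RPKM with DMSO to 7.52 ± 1.07 RPKM with FP54 (SD, n = 3). BLVRB, which reduces biliverdin, and SQSTM1, an autophagy receptor, had log2 fold changes of 1.29 and 1.05. The thiol peroxidase PRDX1 fell by 0.53 on the log2 scale, a call lost after quantile normalization. NFE2L2, which encodes NRF2, and its partner KEAP1 were not called (0.29 and −0.17). Of 8 tested regulators, NFE2L1, MAFG and MAFF rose by 1.404, 0.81 and 0.54, MAFF under fewer settings than the others: it lost its call after quantile or median-ratio scaling and without any of 5 of the 6 libraries.

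Among 18 tested genes of heme and iron handling, 7 rose and 2 fell. FTH1, the ferritin heavy chain, was at 360.1, 422 and 329 RPKM with DMSO and at 1758, 1586 and 1470.1 RPKM with FP54 (log2 fold change 2.12, standard error 0.11, adjusted p = 3.17e-07), and its light chain FTL rose from 362 to 769 RPKM. Both have many processed pseudogenes, and how the authors' counting divided such reads is not stated. SLC48A1, a heme transporter, rose by 1.58, while the iron exporter SLC40A1 fell from 2.33 ± 0.342 RPKM with DMSO to 1.46 ± 0.184 RPKM with FP54 (SD, n = 3) and HMOX2 had a log2 fold change of −0.50. TFRC, the transferrin receptor, was not called (0.36). The antioxidant response element (ARE), searched as TGACNNNGC, was found in 6 of the 17 promoters of tested NRF2 targets, in 5 of the 11 among them that rose, and in 15.3% of those of tested genes. The match in GCLM, PIR and TXNRD1, on the reverse strand in each, reads as follows.
GCLM: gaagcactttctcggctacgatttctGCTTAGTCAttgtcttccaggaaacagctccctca
PIR: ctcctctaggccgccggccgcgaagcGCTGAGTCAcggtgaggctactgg
TXNRD1: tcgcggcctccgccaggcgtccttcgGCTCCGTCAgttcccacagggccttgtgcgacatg
These windows are at chr1:93909430-93909490 (- strand), chrX:15493284-15493333 (- strand) and chr12:104215745-104215805 (+ strand). Metallothioneins, the metal-binding proteins of the zinc response, did not follow the same course: of 7 tested genes 1 fell, MT1G, from 12.2 ± 1.41 RPKM with DMSO to 7.58 ± 0.750 RPKM with FP54 (SD, n = 3), and the median was −0.14.

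Genes of the response to low oxygen rose. Of 22 tested HIF targets, 16 were called higher and 6 were not called, with a median log2 fold change of 0.82 and fitted values from 0.20 to 2.31. P4HA1, which hydroxylates collagen prolines, was at 34.99, 29.2 and 31.1 RPKM with DMSO and at 126, 111 and 143 RPKM with FP54 (log2 fold change 1.99, standard error 0.11, adjusted p = 3.64e-07). VEGFA, the angiogenic factor, also a member of the ATF4 list, was at 9.37, 8.43 and 7.74 RPKM with DMSO and at 37.1, 41.6 and 38.7 RPKM with FP54 (log2 fold change 2.19, standard error 0.10, adjusted p = 1.12e-07). Both were higher in every FP54 library than in any DMSO library. ANGPTL4 rose from 0.398 ± 0.0966 RPKM with DMSO to 2.37 ± 0.551 RPKM with FP54 (SD, n = 3) and PFKFB4 by 2.16. ANGPTL4, which set the upper end of the fitted values at 2.31, passed the limit through its FP54 values. Its change is therefore a description and not support for the list. CA9, a commonly used marker of HIF activity, was below the limit of testing at 0.0292 ± 0.00115 RPKM with DMSO and 0.986 ± 0.171 RPKM with FP54 (SD, n = 3). VHL mRNA was at 23.3, 22.3 and 20.6 RPKM with DMSO and at 27.9, 26.6 and 26.9 RPKM with FP54, a log2 fold change of 0.30 and below the cutoff. Of 21 tested glycolysis genes 7 rose and 14 were not called, and the median was 0.36. The rises were led by ENO2 (3.21), ALDOC (1.83), ALDOA (1.37) and HK1 (1.17), while GAPDH, ENO1, PKM and LDHA had log2 fold changes of 0.21, 0.20, 0.07 and 0.36 and were not called. The core of the hypoxia response element (HRE), ACGTG, was found in 10 of 18 promoters of tested HIF targets, in 6 of the 12 among them that rose, and in 27.7% of those of tested genes. In P4HA1 and ANGPTL4 it was on the reverse strand and in BNIP3 on the forward strand.
P4HA1: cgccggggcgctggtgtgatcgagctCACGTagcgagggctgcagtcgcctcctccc
ANGPTL4: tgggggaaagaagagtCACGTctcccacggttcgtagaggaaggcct
BNIP3: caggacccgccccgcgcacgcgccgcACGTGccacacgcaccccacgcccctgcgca
The windows are at chr10:73096922-73096978 (- strand), chr19:8363905-8363951 (+ strand) and chr10:131982026-131982082 (- strand).

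Chaperones of the heat shock response were lower with FP54. Of 17 tested heat shock proteins and their regulators, 12 were called lower and 5 were not called, with a median log2 fold change of −0.75 (−0.58 and 9 lower after quantile normalization). HSPA8, the constitutive chaperone of the HSP70 family on chr11:123057489-123063230, was at 471, 512 and 555 RPKM with DMSO and at 266, 229.7 and 239 RPKM with FP54 (log2 fold change −1.07, standard error 0.09, adjusted p = 9.71e-06). HSP90AA1, the inducible HSP90, was at 692, 759 and 710.2 RPKM with DMSO and at 330.4, 326 and 352 RPKM with FP54 (log2 fold change −1.10, standard error 0.08, adjusted p = 3.31e-06). For both, the highest FP54 library was below the lowest DMSO library. HSPH1, which exchanges nucleotide on HSP70, and HSPE1, of the mitochondrial chaperonin, had log2 fold changes of −1.24 and −0.94. The stress-inducible HSPA1A was at 0.116 ± 0.0337 RPKM with DMSO and 0.0687 ± 0.0282 RPKM with FP54 (SD, n = 3) and was not tested. HSF1 was not called (0.22). A pair of inverted heat shock units (HSE), GAANNTTC, was found in 4 of 15 promoters of the tested list, in 3 of the 11 among them that fell, and in 4.38% of those of tested genes, and this motif was chosen after the values had been seen.
HSPA8: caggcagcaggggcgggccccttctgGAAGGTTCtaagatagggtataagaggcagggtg
CHORDC1: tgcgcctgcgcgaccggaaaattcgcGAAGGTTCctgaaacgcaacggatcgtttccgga
DNAJA1: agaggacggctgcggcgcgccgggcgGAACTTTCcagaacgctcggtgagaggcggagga
The windows are at chr11:123062153-123062212 (- strand), chr11:90223066-90223125 (- strand) and chr9:33025250-33025309 (+ strand). CHORDC1 and DNAJA1, shown because they hold the motif, had log2 fold changes of −0.89 and −0.75.

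The endoplasmic reticulum list was mixed. Of 23 tested chaperones and unfolded protein response genes 4 rose and 5 fell, and the median was 0.02. HSPA5 (BiP), the chaperone whose rise usually marks this response, was at 103, 105 and 126 RPKM with DMSO and at 113, 108 and 104 RPKM with FP54, with overlapping treatments and a log2 fold change of −0.03. Genes that rose act in degradation of misfolded proteins: EDEM1 by 1.24, SEL1L by 1.02 and HERPUD1 by 0.96, joined by CRELD1 (0.62). Genes that fell were SDF2L1 (−1.21), CALR (−0.57), SEC61B (−0.55), MANF (−0.52) and HSP90B1 (−0.50). The falls of CALR, SEC61B and MANF and the rise of CRELD1 were not called after quantile normalization. Of 30 tested proteasome subunits 10 fell, with a median of −0.38. PSMB3 changed most, from 87.5 ± 6.71 RPKM with DMSO to 47.6 ± 3.12 RPKM with FP54 (SD, n = 3), followed by PSMD6 (−0.64), PSMD1 (−0.63) and PSMD3 (−0.62). Quantile normalization left 6 of these calls.

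Lysosome and autophagy genes were called higher in 17 of 32 tested cases and lower in 1, with a median of 0.53 and a typical level of 6.70 RPKM (median of the mean RPKM). At 5 to 10 RPKM 17% of all genes were called higher. WIPI1 and GABARAPL1, which act in forming autophagosomes, rose from 1.64 to 4.94 RPKM and 2.67 to 5.85 RPKM. PSAP, the precursor of lysosomal saposins and the most abundant gene of the list, was at 122, 121 and 119 RPKM with DMSO and at 263, 256 and 256 RPKM with FP54 (log2 fold change 1.10, standard error 0.07, adjusted p = 1.52e-06). GLA, a lysosomal galactosidase, fell by 0.51 on the log2 scale. SQSTM1 is counted here and among the NRF2 targets.

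Sterol synthesis was the list with the lowest median. Of 21 tested genes 16 were called lower and 5 were not called, with a median log2 fold change of −0.92 and all fitted values below 0. INSIG1, which retains the sterol sensor in the endoplasmic reticulum, was at 47.04, 43.8 and 60.3 RPKM with DMSO and at 13.9, 13.1 and 14.6 RPKM with FP54 (log2 fold change −1.84, standard error 0.12, adjusted p = 1.22e-06). HMGCS1, on chr5:43287470-43313512, makes the precursor of mevalonate and was at 36.4, 37.8 and 43.8 RPKM with DMSO and at 10.2, 11.4 and 12.6 RPKM with FP54 (log2 fold change −1.78, standard error 0.11, adjusted p = 7.33e-07). In both genes the treatments were well apart. DHCR7, the last enzyme of cholesterol synthesis, and ACAT2, which supplies acetoacetyl-CoA, had log2 fold changes of −1.49 and −1.37. ACAT2 overlaps SOD2 on the other strand, and SOD2 was also lower (−0.71). After quantile normalization 19 genes of the list were called lower. The sterol regulatory element (SRE) TCACNCCAC, a motif chosen after the values had been seen, was found in 1 of 15 promoters of the list and in 1.09% of those of tested genes. Among the promoters of list genes that fell, 0 of 10 held it.

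Inflammatory and interferon genes rose in part. Of 20 tested NF-kB targets and cytokines 12 rose and 1 fell, with a median log2 fold change of 0.66 at a typical level of 8.86 RPKM. CCL2, a chemokine for monocytes, was at 3.48, 3.30 and 2.84 RPKM with DMSO and at 18.05, 18.9 and 17.2 RPKM with FP54 (log2 fold change 2.46, standard error 0.10, adjusted p = 9.40e-08). CXCL8, interleukin 8, rose from 8.45 ± 0.866 RPKM with DMSO to 32.2 ± 2.99 RPKM with FP54 (SD, n = 3), IL1B rose from 1.11 ± 0.111 RPKM with DMSO to 5.30 ± 0.786 RPKM with FP54 (SD, n = 3), and IL23A had a log2 fold change of 1.67. SOD2, often taken as an NF-kB target, fell, and NFKBIA (−0.17) and TNFAIP3 (0.20), feedback inhibitors of the pathway, were not called. Of 19 tested AP-1 and immediate early genes 12 rose and 1 fell, with a median of 0.73 at a typical level of 7.40 RPKM. IER3, EGR2 and BHLHE40 had log2 fold changes of 2.12, 1.399 and 1.18, KLF4 one of −0.71, and FOS (0.36) and JUNB (−0.19) were not called.

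Of 36 tested interferon-stimulated genes 25 were called higher and 11 were not called, with a median log2 fold change of 0.93 (0.71 after quantile normalization) at a typical level of 6.18 RPKM. OAS3, which senses double-stranded RNA, was at 2.93, 2.04 and 1.98 RPKM with DMSO and at 7.99, 8.98 and 6.56 RPKM with FP54 (log2 fold change 1.73, standard error 0.16, adjusted p = 1.66e-05). SAMD9L rose from 3.06 ± 1.29 RPKM with DMSO to 9.54 ± 0.375 RPKM with FP54 (SD, n = 3), and RSAD2 and DHX58 had log2 fold changes of 1.69 and 1.47. ISG15, a ubiquitin-like protein, was at 30.4, 42.5 and 30.8 RPKM with DMSO and at 74.9, 78.4 and 58.2 RPKM with FP54 (log2 fold change 1.03, standard error 0.15, adjusted p = 0.000239). All of these were higher in each FP54 library than in any DMSO library, whereas MX2, IFIT1, IFIH1 and HERC5, induced by interferon in most cells, were not called (−0.17, 0.38, 0.09 and −0.01). Of 11 tested MHC and antigen processing genes 7 rose, with a median of 0.67 at a typical level of 5.85 RPKM. CD74, the invariant chain, was at 1.52, 1.58 and 0.831 RPKM with DMSO and at 7.03, 4.29 and 4.56 RPKM with FP54 (log2 fold change 1.95, standard error 0.24, adjusted p = 9.36e-05). HLA-B and HLA-C had log2 fold changes of 1.37 and 1.26, while B2M was not called (0.39). HLA genes are close in sequence and polymorphic, and how reads were divided between them is not stated. The core of the interferon response element (ISRE), GAAANNGAA, also chosen after the values had been seen, was found in 16 of 25 promoters of the interferon list, in 9 of the 17 among them that rose, and in 6.52% of those of tested genes.
ISG15: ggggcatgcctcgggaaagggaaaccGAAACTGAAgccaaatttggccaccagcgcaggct
OAS3: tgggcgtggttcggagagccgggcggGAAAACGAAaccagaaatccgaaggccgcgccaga
RSAD2: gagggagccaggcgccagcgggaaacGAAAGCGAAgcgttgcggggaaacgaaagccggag
The windows are at chr1:1013370-1013430 (+ strand), chr12:112938436-112938496 (+ strand) and chr2:6865780-6865840 (+ strand).

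**Figure D3:**
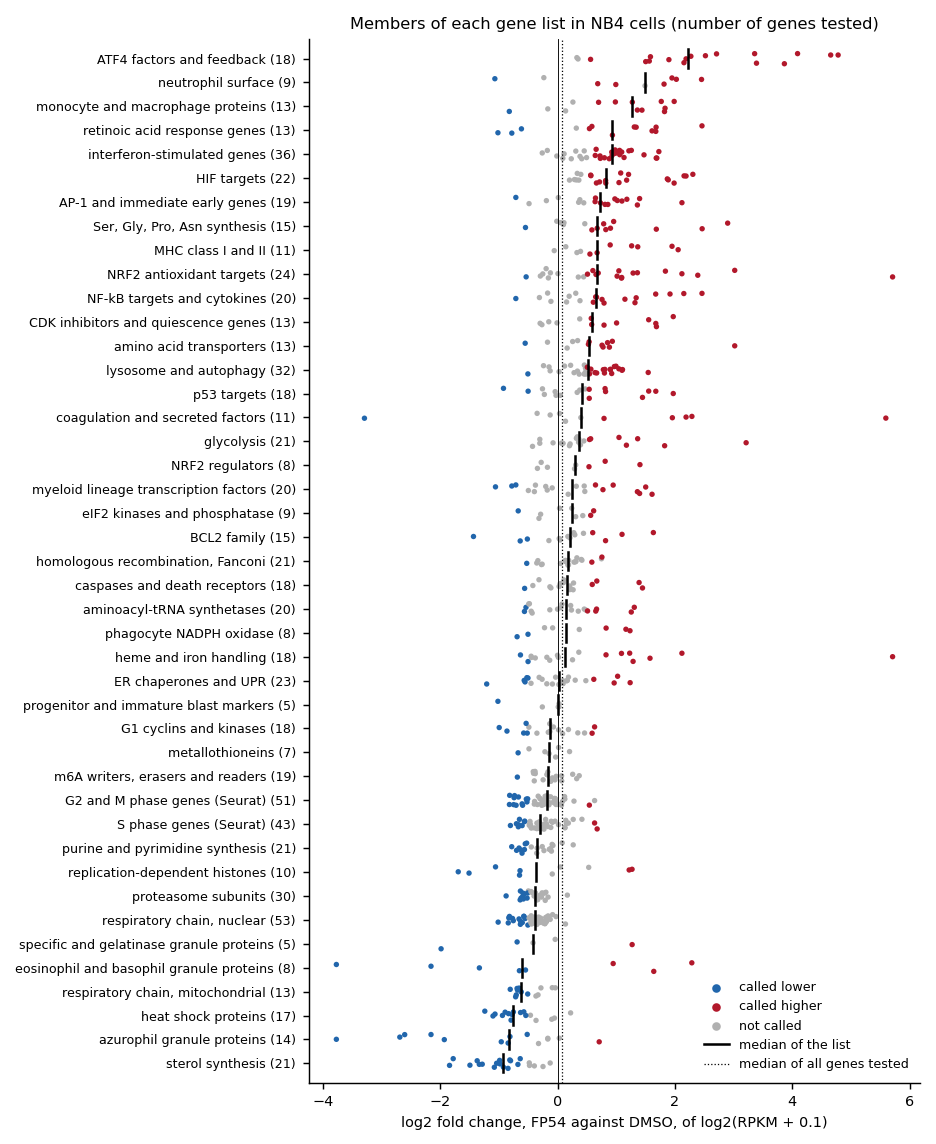
Fitted log2 fold change (FP54 against DMSO) of each tested member of 43 gene lists in NB4 cells, ordered by the list's median (black bar); the number tested is in brackets and the dotted line is the median of all genes tested, 0.07. ATF4 factors lie highest (median 2.23) and sterol synthesis lowest (−0.92), and members of most lists lie on both sides of 0.

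Genes of the azurophil granule, the hallmark of the promyelocyte, fell. Of 14 tested genes 9 were called lower and 1 higher, with a median log2 fold change of −0.83 (−0.73 after quantile normalization). Of the 9, 2 were below 1 RPKM with FP54 and passed the limit through their DMSO values. This count and median are therefore a description. In bulk RNA a smaller share of cells of a given stage and less RNA per cell cannot be told apart. MPO, the most abundant of them, on chr17:58269855-58280935, was at 2036, 2263 and 2211 RPKM with DMSO and at 1116, 1149 and 1082 RPKM with FP54 (log2 fold change −0.96, standard error 0.09, adjusted p = 1.28e-05). CTSG, cathepsin G, on chr14:24573518-24576250, was at 49.9, 66.8 and 58.8 RPKM with DMSO and at 9.52, 10.2 and 8.78 RPKM with FP54 (log2 fold change −2.60, standard error 0.11, adjusted p = 1.07e-07). PRTN3, proteinase 3, was at 55.2, 68.98 and 58.7 RPKM with DMSO and at 14.7, 15.99 and 16.9 RPKM with FP54 (log2 fold change −1.93, standard error 0.10, adjusted p = 3.17e-07). In all 3 genes the treatments were separate, and by the means CTSG fell 6.17-fold, PRTN3 3.84-fold and MPO 1.94-fold. AZU1 fell by 0.52 on the log2 scale, and its call was lost without DMSO replicate 2 or FP54 replicate 3. DEFA3, a defensin, had 18 to 26 reads with DMSO and 1 to 2 with FP54. RNASE2, an eosinophil and neutrophil ribonuclease that is close in sequence to RNASE3, was at 113, 126 and 112 RPKM with DMSO and at 26.1, 24.5 and 28.2 RPKM with FP54 (log2 fold change −2.16, standard error 0.09, adjusted p = 7.62e-08), and RNASE3 had a log2 fold change of −3.77. SERPINB1, an inhibitor of these proteases, rose from 9.54 ± 0.777 RPKM with DMSO to 15.6 ± 0.678 RPKM with FP54 (SD, n = 3), and LYZ (lysozyme), CTSC and CFD were not called (−0.17, −0.32 and 0.03).

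Genes of the later granules were few. Of 17 specific and gelatinase granule genes 5 were tested, of which MMP9 rose and SLPI and CYBB fell. MMP9, gelatinase B, was at 201, 229 and 158 RPKM with DMSO and at 485, 467 and 452 RPKM with FP54 (log2 fold change 1.27, standard error 0.12, adjusted p = 1.93e-05). SLPI, a protease inhibitor, was at 9.75, 10.8 and 9.76 RPKM with DMSO and at 3.01, 2.45 and 2.05 RPKM with FP54 (log2 fold change −1.98, standard error 0.14, adjusted p = 1.86e-06). Of 8 tested eosinophil and basophil granule genes 5 fell and 3 rose. RNASE3 is counted here and among the azurophil genes. MS4A3 and PRG2 had log2 fold changes of −1.33 and −0.65, while HDC, which makes histamine, rose from 23.7 ± 2.35 RPKM with DMSO to 73.7 ± 1.26 RPKM with FP54 (SD, n = 3), and the tryptase gene TPSAB1 and the factor GATA2 rose by 2.29 and 0.95. Of 8 tested NADPH oxidase genes, which make superoxide in phagocytes, the cytosolic subunits NCF1, NCF4 and RAC2 rose by 1.23, 1.17 and 0.83, and the membrane subunit CYBB fell from 28.3 ± 3.31 RPKM with DMSO to 17.4 ± 0.359 RPKM with FP54 (SD, n = 3). NCF1 has close pseudogene copies. RAC1 had a log2 fold change of −0.50, not called after quantile normalization or without any of 3 libraries.

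Several surface receptors of mature neutrophils and monocytes rose. Of 22 neutrophil genes 9 reached the limit of testing, of which 6 were called higher and 1 lower, with a median of 1.49 at a typical level of 5.50 RPKM. ITGAM (CD11b), the integrin used to follow myeloid maturation, was at 4.001, 3.39 and 3.53 RPKM with DMSO and at 14.8, 13.2 and 15.1 RPKM with FP54 (log2 fold change 1.95, standard error 0.10, adjusted p = 3.46e-07). ITGAX (CD11c) was at 0.965, 0.902 and 0.658 RPKM with DMSO and at 5.19, 4.71 and 5.12 RPKM with FP54 (log2 fold change 2.45, standard error 0.15, adjusted p = 7.33e-07). ANPEP (CD13) was at 147, 144 and 118 RPKM with DMSO and at 574, 549 and 535 RPKM with FP54 (log2 fold change 2.02, standard error 0.10, adjusted p = 1.88e-07). By the means these were 3.94-fold, 5.95-fold and 4.05-fold higher with FP54, with no overlap. ANPEP was already abundant with DMSO and was also chosen as a marker of the NB4 line, so its rise does not by itself mark maturation. ITGAX was below 1 RPKM with DMSO and passed the limit through its FP54 values. Its change is therefore a description and not support for the list. TREM1 rose by 1.82, and FCGR1A (CD64) fell from 5.58 ± 0.691 RPKM with DMSO to 2.60 ± 0.290 RPKM with FP54 (SD, n = 3). S100A9, a calprotectin subunit, was at 3.13, 2.54 and 1.72 RPKM with DMSO and at 26.5, 4.35 and 2.80 RPKM with FP54: FP54 replicate 1 stood far above the other libraries, and the gene was not called.

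Of 28 monocyte and macrophage genes 13 were tested, with 9 called higher, 1 lower and a median of 1.27 at a typical level of 6.11 RPKM. C5AR1, the receptor of complement C5a, was at 1.16, 1.41 and 1.19 RPKM with DMSO and at 5.38, 5.02 and 5.37 RPKM with FP54 (log2 fold change 1.99, standard error 0.12, adjusted p = 6.97e-07). CD68, of macrophage lysosomes, rose from 9.44 ± 1.15 RPKM with DMSO to 18.8 ± 2.24 RPKM with FP54 (SD, n = 3). SPP1, APOE and CD86 had log2 fold changes of 1.83, 1.82 and 1.77. AIF1 fell from 191 ± 38.8 RPKM with DMSO to 107 ± 2.71 RPKM with FP54 (SD, n = 3), CSF1R was not called (0.14), and CD14, below the limit, was at 0.141 ± 0.0732 RPKM with DMSO and 0.478 ± 0.0720 RPKM with FP54 (SD, n = 3). Thus several, not all, of the surface genes of mature cells were higher in these libraries. With a limit of 5 RPKM the tested genes called higher numbered 3 in the neutrophil list and 5 in the monocyte list.

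Transcription factors of the lineage were split. Of 20 tested 7 rose and 3 fell, with a median of 0.25. CEBPE, which drives the specific granule stage, was at 22.7, 33.3 and 25.4 RPKM with DMSO and at 14.5, 18.1 and 14.4 RPKM with FP54 (log2 fold change −0.78, standard error 0.14, adjusted p = 0.00118). CEBPD was at 56.8, 80.9 and 61.1 RPKM with DMSO and at 35.9, 28.6 and 30.2 RPKM with FP54 (log2 fold change −1.06, standard error 0.13, adjusted p = 0.000114). CEBPB, raised in emergency granulopoiesis, was at 11.03, 14.8 and 9.13 RPKM with DMSO and at 32.1, 36.4 and 29.6 RPKM with FP54 (log2 fold change 1.502, standard error 0.16, adjusted p = 3.00e-05). So CEBPD and CEBPE were lower and CEBPB higher in every FP54 library than in any DMSO library. CEBPA (−0.20), SPI1 (−0.39, adjusted p = 0.0125), GFI1 (−0.09), PML (0.18) and RARA (0.32) were not called. ID2 rose by 1.61 and EGR2 by 1.399. Of 13 tested genes known to answer retinoic acid, the drug that matures NB4 cells, 9 rose and 3 fell, with a median of 0.94. PRAM1, whose repression by PML-RARA is known, rose from 7.61 ± 2.58 RPKM with DMSO to 23.7 ± 0.618 RPKM with FP54 (SD, n = 3), and BTG2 rose by 1.67. CD38, a retinoic acid target and blast marker, had a log2 fold change of −1.02, and TRIB1 fell from 4.57 ± 0.308 RPKM with DMSO to 2.95 ± 0.298 RPKM with FP54 (SD, n = 3). The other 4 tested genes of the 5 in the progenitor and blast list were not called: FLT3 (−0.26), CD33 (0.03), SOX4 (0.01) and MSI2 (0.02).

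**Figure D4:**
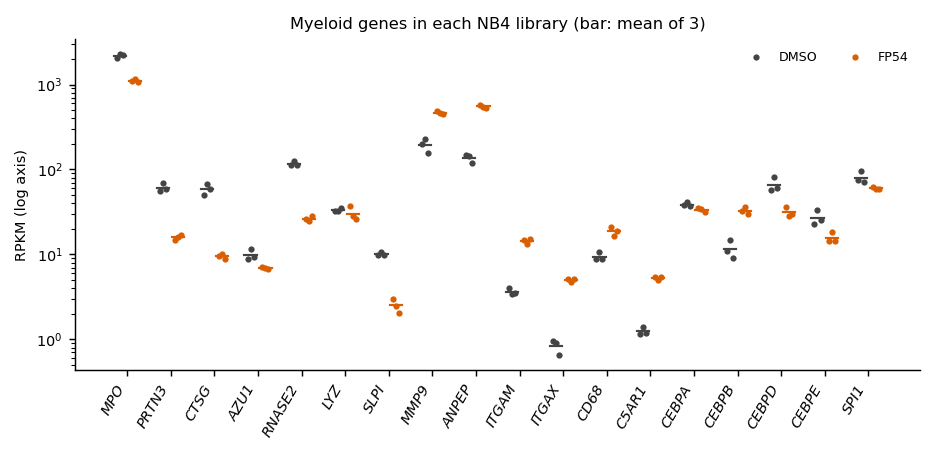
RPKM (log axis) of myeloid genes in each of the 3 DMSO and 3 FP54 libraries of NB4 cells, with bars at the mean. MPO, PRTN3, CTSG, AZU1, RNASE2, SLPI, CEBPD and CEBPE are lower and MMP9, ANPEP, ITGAM, ITGAX, CD68, C5AR1 and CEBPB higher in every FP54 library than in any DMSO library, while LYZ overlaps and CEBPA and SPI1 differ by less than the cutoff.

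Genes of coagulation and of secreted factors known from promyelocytic leukemia gave 5 rises and 1 fall among 11 tested. Of the rises 3 were of genes below 1 RPKM with DMSO, and the fall was of a gene below 1 RPKM with FP54. Those genes passed the limit through the treatment in which they were high, so these counts are a description. THBS1, thrombospondin, and HGF, hepatocyte growth factor, were at the ends with log2 fold changes of 5.59 and −3.29. SERPINE2, a protease inhibitor, rose by 2.29. F3, tissue factor, on which the bleeding tendency of this leukemia partly rests, was not called (−0.35), nor were THBD (−0.13) and ANXA2 (0.03).

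The cell cycle genes changed little in comparison. Of 43 S phase genes 8 fell and 2 rose, with a median log2 fold change of −0.29, and of 51 tested G2 and M phase genes 12 fell and 1 rose, with a median of −0.18. Their typical levels were 25.7 and 31.5 RPKM, and of all genes at 20 to 50 RPKM 17.1% were called lower, beside 18.6% and 23.5% in these lists. The S phase count was 5 after quantile normalization and 14 after median-ratio scaling. MCM7, a subunit of the replicative helicase, was at 191, 215 and 214 RPKM with DMSO and at 119, 121 and 115 RPKM with FP54 (log2 fold change −0.80, standard error 0.08, adjusted p = 2.37e-05). CKS2, a cofactor of cyclin-dependent kinases, was at 154, 145 and 161 RPKM with DMSO and at 81.4, 94.7 and 84.3 RPKM with FP54 (log2 fold change −0.82, standard error 0.09, adjusted p = 3.32e-05). Both were lower in every FP54 library than in any DMSO library. Among the other falls, GMNN and FEN1 of the S phase list stood at −0.70 and −0.66, and RANGAP1, AURKA and TACC3 of the G2 and M phase list at −0.82, −0.75 and −0.74, on the log2 scale. The standard proliferation markers were not called. MKI67 was at 113, 78.2 and 98.9 RPKM with DMSO and at 89.5, 89.7 and 95.6 RPKM with FP54, with overlapping treatments. CDK1 (−0.05) overlapped as well, and PCNA, lower in all FP54 libraries, had a log2 fold change of −0.47 and an adjusted p of 0.000784 but lay within the cutoff of 0.5, and was called lower after median-ratio scaling (−0.53). CCNE2 and CASP8AP2 rose by 0.63 and 0.67, CKAP2L by 0.54, and all 3 calls were lost in at least 1 of the scalings or without a library.

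Of 18 tested G1 cyclins, kinases and E2F and RB proteins 5 fell and 2 rose. CCND2, a D cyclin, was at 22.3, 26 and 23.1 RPKM with DMSO and at 13.2, 13.04 and 12.8 RPKM with FP54 (log2 fold change −0.86, standard error 0.09, adjusted p = 2.68e-05). CCNA1, a myeloid cyclin A, fell from 17.8 ± 0.420 RPKM with DMSO to 8.91 ± 0.427 RPKM with FP54 (SD, n = 3), and CCNA2 and CDC25A had log2 fold changes of −0.58 and −0.54, which were not called after quantile normalization. CCND1 (−0.49, adjusted p = 0.00207; called lower after quantile normalization and median-ratio scaling, at −0.53 and −0.55), CCND3 (0.19) and CCNE1 (−0.13) were not called, and RB1 rose from 13.9 ± 3.40 RPKM with DMSO to 20.6 ± 2.04 RPKM with FP54 (SD, n = 3). Of 13 tested CDK inhibitors and quiescence genes 8 were called higher and 5 were not called, with a median of 0.58 at a typical level of 7.45 RPKM. CDKN1A (p21) was at 2.17, 2.33 and 1.48 RPKM with DMSO and at 8.66, 7.63 and 7.66 RPKM with FP54 (log2 fold change 1.97, standard error 0.16, adjusted p = 5.36e-06). CCNG2, high in resting cells, rose from 2.77 ± 0.269 RPKM with DMSO to 9.13 ± 1.04 RPKM with FP54 (SD, n = 3), while CDKN1B (p27) was not called (−0.01). Both rises left the FP54 libraries apart from the DMSO libraries. Of 62 replication-dependent histone genes 10 were tested, at a typical level of 2.698 RPKM, of which 5 fell and 2 rose. Most mRNA of these genes lacks the poly(A) tail for which the libraries were selected. H2BC12, the most abundant of them, was at 19.95, 22.3 and 18.8 RPKM with DMSO and at 9.15, 9.37 and 10.7 RPKM with FP54 (log2 fold change −1.06, standard error 0.10, adjusted p = 1.57e-05). H2AC8 and H2BC4 had log2 fold changes of −1.69 and −1.51 and H4C3 and H2AC6 of 1.27 and 1.22. These genes are nearly identical in their coding parts, and H2BC4 and H4C3 overlap on opposite strands. The E2F motif TTTNNCGC was found in 16 of 33 promoters of the S phase list, against 11.4% of tested genes, and the CHR motif TTTGAA and CCAAT were each found in 30 of 43 promoters of the G2 and M phase list, against 9.64% and 37.6%. Among the G2 and M phase genes that fell, 5 of 9 held the CHR motif.

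Of 18 tested p53 targets 8 rose and 2 fell, with a median of 0.43 (0.15 after quantile normalization) at a typical level of 7.05 RPKM. GADD45A, a stress-induced inhibitor of growth, was at 6.01, 7.75 and 6.53 RPKM with DMSO and at 17.1, 21.9 and 21.1 RPKM with FP54 (log2 fold change 1.55, standard error 0.12, adjusted p = 5.54e-06). BTG2, TNFRSF10B and BBC3 rose by 1.67, 1.45 and 0.82, AEN fell from 7.70 ± 0.201 RPKM with DMSO to 4.03 ± 0.329 RPKM with FP54 (SD, n = 3), and MDM2 (−0.22) and BAX (0.05), direct p53 targets in most cells, were not called. Of 15 tested genes of the BCL2 family, which decides on mitochondrial cell death, 4 rose and 3 fell. BMF, which promotes death, was at 4.18, 4.15 and 3.79 RPKM with DMSO and at 11.99, 12.6 and 13.7 RPKM with FP54 (log2 fold change 1.63, standard error 0.10, adjusted p = 6.92e-07). PMAIP1 (NOXA) rose from 15.5 ± 1.21 RPKM with DMSO to 33.3 ± 2.94 RPKM with FP54 (SD, n = 3) and BIK, of the same kind, fell from 11.4 ± 2.94 RPKM with DMSO to 4.08 ± 0.383 RPKM with FP54 (SD, n = 3). BCL2, which opposes death, was at 7.75, 5.45 and 8.13 RPKM with DMSO and at 4.39, 4.36 and 4.67 RPKM with FP54 (log2 fold change −0.64, standard error 0.14, adjusted p = 0.00402), and BCL2A1, of like function, rose by 0.60. MCL1 was not called (0.21). Members that promote and that oppose death were thus found on both sides. Of 18 tested caspases and death receptors 4 rose and 1 fell. TNFRSF10B, its ligand TNFSF10 (1.39) and APAF1 (0.67) were among the rises, CASP1 fell (−0.56), and CASP8 and CASP9 were not called. Of 21 tested genes of homologous recombination and Fanconi proteins 2 rose and 1 fell: FANCE by 0.76, RAD51D by 0.58 and RAD54L with −0.52.

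Some genes of respiration fell, by small amounts. Of 53 tested nuclear-encoded subunits of the respiratory chain 14 were called lower and 39 were not called, with a median log2 fold change of −0.38 and fitted values between −1.01 and 0.14. NDUFB7, of complex I, was at 174, 265 and 195 RPKM with DMSO and at 118, 118 and 114 RPKM with FP54 (log2 fold change −0.83, standard error 0.13, adjusted p = 0.000507). ATP5MC1, NDUFA8 and NDUFAB1 had log2 fold changes of −1.01, −0.84 and −0.82. Of the 13 subunits encoded in mitochondrial DNA 8 fell, with a median of −0.62, of which 2 were called and the median was −0.05 after quantile normalization. MT-ATP6 was at 3539, 3806 and 3494 RPKM with DMSO and at 1810.4, 2116 and 2299 RPKM with FP54 (log2 fold change −0.81, standard error 0.11, adjusted p = 0.000166). MT-CO2 and MT-ND3 changed by −0.71 and −0.70 on the log2 scale. Of 21 tested purine and pyrimidine synthesis genes 8 fell and 13 were not called, with a median of −0.35. NME1, IMPDH1, PFAS and CTPS1 had log2 fold changes of −0.78, −0.70, −0.66 and −0.62. Of 19 m6A writers, erasers and readers the reader HNRNPA2B1 was called, with a fall from 271 ± 11.5 RPKM with DMSO to 169 ± 3.78 RPKM with FP54 (SD, n = 3), and FTO itself was at 2.86, 2.52 and 2.81 RPKM with DMSO and at 2.11, 1.95 and 2.03 RPKM with FP54, a log2 fold change of −0.41 (adjusted p = 0.0119), and −0.74 and called lower after quantile normalization, which does not bear on the protein that FP54 removes. The demethylase ALKBH5 and the methyltransferase genes METTL3 and METTL14 were not called (−0.16, −0.18 and 0.26).

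Genes with large changes also lay outside the lists. UNC5B, a receptor of netrins, had 1 to 5 reads per library with DMSO and was at 0.0283, 0.00686 and 0.0327 RPKM with DMSO and at 3.23, 3.09 and 2.54 RPKM with FP54. KLHDC7B was at 2.36, 2.61 and 1.89 RPKM with DMSO and at 47.5, 57.4 and 38.8 RPKM with FP54 (log2 fold change 4.32, standard error 0.15, adjusted p = 3.73e-08). KLHDC7B was separated from DMSO in every library. UNC5B was too, but it was below 1 RPKM with DMSO and passed the limit through its FP54 values. The same holds for CYP1A1 and HMHB1, given next, so the values of these genes are a description. CYP1A1, a target of the aryl hydrocarbon receptor, rose from 0.0549 ± 0.0256 RPKM with DMSO to 3.46 ± 0.293 RPKM with FP54 (SD, n = 3), with 2 to 6 reads behind the DMSO values. COL6A2, a collagen, and KCNG1, a potassium channel subunit, rose by 3.91 and 3.86 on the log2 scale, and the chemokine gene CCL19 had 0 to 4 reads with DMSO and at most 24 with FP54. The rise of CCL19 rests on these few reads, and the DMSO levels of COL6A2 and KCNG1 are not reported here. Their changes too are given as a description. HMHB1, with 0 reads in all DMSO libraries, was higher with FP54 by at least 6.11-fold when set against 3 reads per library. Of the genes that fell, LGALS12, a galectin of myeloid and fat cells, was at 20.8, 22.7 and 20.5 RPKM with DMSO and at 5.12, 4.78 and 4.79 RPKM with FP54 (log2 fold change −2.10, standard error 0.09, adjusted p = 9.90e-08). IL6R, the interleukin 6 receptor, was at 14.8, 13.8 and 15.7 RPKM with DMSO and at 4.41, 2.99 and 3.01 RPKM with FP54 (log2 fold change −2.08, standard error 0.15, adjusted p = 2.25e-06). For both the highest FP54 library was below the lowest DMSO library. BMP2, DHRS9 and UNC5C, a bone morphogenetic protein, a retinol dehydrogenase and a netrin receptor, stood at −2.10, −2.10 and −2.11 on the log2 scale. The T cell receptor joining segments TRGJ1 and TRAJ5 also met the rule for large changes but held 5 or fewer reads per library.

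The same test in MOLM-13 cells, a monocytic line of acute myeloid leukemia given the same treatment, served to ask which of these changes differed in NB4 cells. An interaction of treatment and line was fitted over the 8849 genes tested in both, and the change in NB4 cells was below that in MOLM-13 cells for 3.65% of genes (323) and above it for 10.4% (918) at an adjusted p below 0.05 and a difference of at least 0.5. These counts were 151 and 477 without DMSO replicate 3 of both lines, 163 and 569 without FP54 replicate 1 and 260 and 608 without FP54 replicate 2. After quantile normalization within each line 858 genes were below and 792 above, so those below then outnumbered those above. MOLM-13 FP54 replicate 2 was the shallowest library, with 5836599 reads. Of the ATF4 factor list 17 of 18 genes were above in NB4, and its median log2 fold change was 2.23 there and −0.62 in MOLM-13. Of the 18, 5 had NB4 DMSO means below 1 RPKM and were tested through their FP54 values. This count and the NB4 median are therefore a description. TRIB3 changed by 2.27 in NB4 and by −1.11 in MOLM-13 cells, where it went from 17.01 to 7.76 RPKM (difference 3.38, standard error 0.20, adjusted p = 7.17e-08). ASNS changed by −0.63 in MOLM-13 cells (difference 3.09, standard error 0.24, adjusted p = 1.10e-06). Both genes had fitted values of opposite sign in the lines. Amino acid synthesis genes were above in 12 of 15, tRNA synthetases in 13 of 20, transporters in 8 of 13 and HIF targets in 12 of 22. HMOX1, tested in NB4 cells through its FP54 values, changed by 0.89 in MOLM-13 cells (difference 4.82, standard error 0.43, adjusted p = 4.76e-06).

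For the heat shock, sterol and proteasome lists few genes differed by the interaction. Of the heat shock proteins 1 of 17 differed and the medians were −0.75 and −0.80, of sterol synthesis 2 of 21 differed with medians of −0.92 and −0.73, and of the 30 proteasome subunits 1 differed. A gene that did not differ by this test is not shown to change equally. For the granule proteins 5 of 13 azurophil genes were below in NB4 and 1 above: PRTN3 changed by −0.25 in MOLM-13 cells (difference −1.68, standard error 0.31, adjusted p = 0.00196) and CTSG by −0.89 (difference −1.71, standard error 0.21, adjusted p = 8.62e-05), while MPO, at 16.1 to 3.79 RPKM in that line, was the gene above (difference 1.10, standard error 0.21, adjusted p = 0.00268). ITGAM rose more in NB4 (difference 1.30, standard error 0.18, adjusted p = 0.000203), no difference was detected for CD68 (difference −0.13, standard error 0.19, adjusted p = 0.714), and CEBPE had a fitted value of 0.43 in MOLM-13 cells (difference −1.21, standard error 0.22, adjusted p = 0.00221). Of 43 S phase genes 2 were above in NB4, and of the 50 G2 and M phase genes tested in both 1 was below. Replication-dependent histones differed in 8 of 10 genes, 7 below in NB4, and their median was 1.18 in MOLM-13 and −0.36 in NB4. Large shares differed in further lists. Of 20 NF-kB targets and cytokines 10 were above in NB4 and 1 below. Of 13 retinoic acid genes 6 were above and 2 below, and of 7 eosinophil and basophil genes 2 were above and 4 below.

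**Figure D5:**
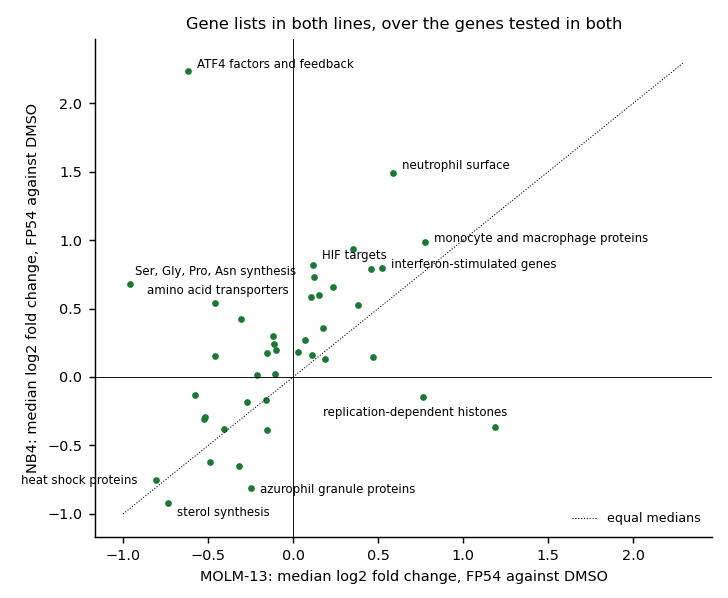
Median log2 fold change (FP54 against DMSO) of each gene list with at least 5 genes tested in both lines, in MOLM-13 cells (horizontal) and NB4 cells (vertical), over the genes tested in both; the dotted line marks equal medians. The ATF4 list lies at −0.62 and 2.23, amino acid synthesis at −0.96 and 0.68 and the histones at 1.18 and −0.36, while heat shock and sterol genes lie near the line.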

How the data were processed

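Of 22 samples in the labels, 12 RNA-seq libraries were used, 6 of NB4 and 6 of MOLM-13 cells (3 DMSO and 3 FP54 each). The cell line of each table rests on its name and the sample titles. RNA was selected for poly(A). The authors trimmed reads with cutadapt 4.8, removed duplicates with Clumpify, aligned to hg38 with STAR 2.7.11b, counted protein-coding GENCODE V42 genes with featureCounts 2.0.3 and deposited RPKM values. The strand setting of the counting and the gene lengths are not given in the sources used here, and 109 of the 233 genes chosen by rule overlap a gene on the other strand. Reads were recovered as multiples of the RPKM of 1 read.

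Differences were fitted with limma 3.58.1 in R 4.3.3 (lmFit, eBayes with an intensity trend) on log2(RPKM + 0.1), which understates changes of low genes. Calls used the unadjusted p, and printed p-values are adjusted by Benjamini-Hochberg over all genes tested. The study's own test was a model of raw counts, whereas the values here are RPKM. An exact permutation test of 3 against 3 libraries cannot go below p = 0.1. The lines were compared by an interaction term over all 12 libraries. The fit was tested on simulated data. Other scalings, pseudocounts, limits, cutoffs and left-out libraries were tried.

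Named genes were the 15 with the largest fitted change in each direction at an adjusted p below 0.05 with no overlap of treatments, up to 4 called members of each list in each direction, and a set of key genes whatever their values. Other genes were named after their values were seen, among them MARS1, FTL, SLC7A1, HSP90B1, CHORDC1, DNAJA1 and ISG15 and list members given as not called. Some genes are not reported here. The members and gene lists were chosen with earlier results of these data known. Promoters are from RefSeq (GRCh38.p14) and gene coordinates from GENCODE V44 (hg38).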

Additional observations from a re-analysis of the deposited data

Results flagged for a closer look

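The response to FP54 differed between NB4 and MOLM-13 cells by the interaction term of limma (adjusted p below 0.05) for 23 of the key genes, given here as the NB4 log2 fold change minus the MOLM-13 log2 fold change. Stress genes lay above in NB4: GDF15 by 6.97, HMOX1 by 4.82, CHAC1 by 3.56, TRIB3 by 3.38, ASNS by 3.09, SLC7A11 by 2.65, NQO1 by 1.90, PHGDH by 1.81, DDIT3 by 1.63 and GCLM by 1.38. GDF15 had 0 reads in the NB4 DMSO libraries, so its value depends on the pseudocount. GDF15, HMOX1 and CHAC1 were below 1 RPKM with DMSO in NB4 cells and were tested there through their FP54 values. Their differences are given as values only. The growth and death genes CDKN1A, GADD45A, BCL2 and BBC3 lay above by 2.50, 2.32, 1.34 and 1.01, and VHL by 0.72. Of the myeloid genes, MPO (1.10), ITGAM (1.30) and CEBPB (1.31) lay above, and PRTN3 (−1.68), CTSG (−1.71), CEBPE (−1.21), AZU1 (−0.79) and SPI1 (−0.56) lay below. With replicates left out of both lines in turn, the call of SPI1 was lost in all 6 fits, that of AZU1 in 5, that of BCL2 in 4, and those of VHL and DDIT3 without DMSO replicate 3.

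The mean level over the 413 olfactory receptor genes, which lie outside the genes tested, was 0.0529 RPKM in the FP54 libraries of NB4 cells, above the 0.00287 RPKM in the DMSO libraries. The part of this level in the results was not tested gene by gene.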

How the results depend on the processing

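The NB4 counts of 1050 lower and 1834 higher genes depended on the cutoff and the level. With an adjusted p under 0.05 and at least 1 on the log2 scale they were 138 and 674. A limit of 5 RPKM left 838 lower and 789 higher (51.5% of calls lower), a limit of 20 RPKM, chosen after the data were seen, left 435 lower and 182 higher, and no limit gave 1092 lower and 4967 higher. By construction, these limits change which genes are tested. Quantile normalization gave 51.6% of calls lower and median-ratio scaling 45.2%, against 36.4% as reported. Leaving out 1 library gave 997 to 1109 lower and 1709 to 2113 higher.

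At a log2 fold change of at least 1, the list counts became 3 higher for amino acid synthesis, 1 for transporters, 10 for HIF targets, 14 for interferon, 7 for NF-kB, 5 for CDK inhibitors and 4 for lysosome genes, and 3 lower for heat shock, 8 for sterol, 5 for azurophil granule, 1 for nuclear respiratory, and 0 for S phase, G2 and M phase and mitochondrially encoded genes, which by limma at an unadjusted p below 0.01 and a change of 0.5 numbered 8, 12 and 8. A limit of 5 RPKM left 10 ATF4, 16 interferon, 3 neutrophil, 5 monocyte and 10 lysosome genes higher, and no limit gave 10 neutrophil and 14 monocyte genes. S phase genes called lower were 14 after median-ratio scaling and 5 after quantile normalization, which left 2 mitochondrially encoded genes. The cause was not tested.

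No named gene reversed its direction. Over the alternatives other than leaving out a library, 147 of the gene-by-setting results of named genes lost a call, 4 gained one and 2893 kept their side of the cutoff. Of the losses 90 came with the cutoff of 1 on the log2 scale, 26 with quantile normalization and 22 with a pseudocount of 1 RPKM. Leaving out 1 library gave 60 losses and 5 gains, and 1333 kept their side. FTO (−0.74) and CCND1 (−0.53) were called lower after quantile normalization, and CCND1 (−0.55) after median-ratio scaling.

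The interaction counts were 858 below and 792 above in NB4 after quantile normalization within each line, against 323 and 918 as reported. With a replicate left out of both lines they ran from 151 to 329 below and 477 to 1059 above, and were lowest without DMSO replicate 3.

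Deviations of DMSO and FP54 libraries with the same number correlated at −0.14, 0.07 and 0.12. The labels do not say whether libraries of the same number were handled together, and these correlations cannot show it. With the replicate block 1050 genes were lower and 1862 higher. The FP54 libraries held fewer reads, which limits genes near 1 RPKM most.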
